A study of Mus musculus with 2 samples.

Results

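The 10 genes described here set how a cell leaves G1, the phase before DNA replication: the D cyclins Ccnd1, Ccnd2 and Ccnd3, the E cyclin Ccne1, the kinases Cdk4 and Cdk6, and the inhibitors Cdkn1a (p21), Cdkn1b (p27), Cdkn2c (p18) and Cdkn2d (p19). They were taken by gene symbol from 32285 genes, and each symbol matched 1 row of both count matrices. The cells came from the leukemic bone marrow of mice. They were sorted as late promyelocytes, immature granulocytes of the neutrophil line, by the phenotype Cd45.2+, C-Kit+, Gr1+, Cd34- and FcγR+. All of them came from progenitors transformed by PLZF/RARA, a fusion of a zinc finger transcription factor with the retinoic acid receptor alpha that is found in a variant of acute promyelocytic leukemia. The control mice were given corn oil with 10% DMSO and the others retinoic acid (0.8 to 1 mg), both by intraperitoneal injection over 7 days. Each treatment had 1 library of droplet 3′ single-cell RNA sequencing, with 5476 vehicle cells and 7140 retinoic acid cells kept. A treated cohort held 3 to 5 mice, and the labels give neither the strain, nor the age, nor how many mice gave cells to a library. Treatment, mouse, sort and library preparation therefore cannot be told apart, no test was made, and the 95% intervals given cover counting error only.

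D cyclins bind Cdk4 or Cdk6 and start the phosphorylation of the retinoblastoma protein, which frees E2F transcription factors, and cyclin E with Cdk2 then carries the cell into S phase. The INK4 inhibitors, among them Cdkn2c and Cdkn2d, bind Cdk4 and Cdk6 and keep D cyclins off them. Cdkn1a and Cdkn1b, of the Cip/Kip family, inhibit cyclin E with Cdk2 and can also sit in complexes of D cyclins with Cdk4 or Cdk6. In the granulocyte line, cells divide up to the myelocyte stage and then leave the cycle while they fill secondary granules with proteins such as Camp, Ngp, Ltf and Lcn2.

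The vehicle library carried 99107718 UMIs (unique molecular identifiers, each marking 1 captured RNA molecule) and the retinoic acid library 110088247, with medians of 16749.5 and 14604 UMIs per cell. Median mitochondrial shares were 1.98% and 1.23%, and 11 barcodes occurred in both libraries. Of 8 promyelocyte markers 7 reached 1 CPM (10000 times the percent of all UMIs) in both libraries, and their summed level was 8692 CPM with vehicle and 19241 CPM with retinoic acid. Markers of other types differed too. The basophil and mast cell list summed to 741 CPM with vehicle and 66.4 CPM with retinoic acid, Cd34 stood at 53.8 and 0.118 CPM, and Nkg7 at 1283 and 575 CPM with Cd3e, Cd4, Cd8a and Trbc2 at 0 in both. Their part in the values below was not tested, beyond the splits of cells given.

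RefSeq promoter sequences (GRCm38.p6) were held for 8 of the 10 genes. The 250 bases before the start are printed for 5 of them, 1 kinase that was lower and 4 genes that were higher in cells rich in granule RNA. Windows of genes that differed in opposite directions can thus be set side by side. The windows of Cdk6, which was also lower in those cells, and of Ccnd3 and Cdkn1b, which were also higher, are not printed. The letters run 5′ to 3′ on the strand of the gene, and capitals mark the motifs searched: the E box CACGTG, which Myc can bind, the GC box GGGCGG, the E2F site spelled TTCCCGC, or with TTCGCGC in its place, or with TTGCCGC, or with TTGGCGC, and the p53 element.
Cdk4, chr10:127063285-127063534, plus strand: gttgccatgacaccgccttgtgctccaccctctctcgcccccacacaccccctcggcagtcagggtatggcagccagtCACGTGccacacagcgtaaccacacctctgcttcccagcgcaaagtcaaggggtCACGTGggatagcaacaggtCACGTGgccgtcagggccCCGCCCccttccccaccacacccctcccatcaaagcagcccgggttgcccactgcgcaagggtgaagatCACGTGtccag
Ccne1, chr7:38107491-38107740, minus strand: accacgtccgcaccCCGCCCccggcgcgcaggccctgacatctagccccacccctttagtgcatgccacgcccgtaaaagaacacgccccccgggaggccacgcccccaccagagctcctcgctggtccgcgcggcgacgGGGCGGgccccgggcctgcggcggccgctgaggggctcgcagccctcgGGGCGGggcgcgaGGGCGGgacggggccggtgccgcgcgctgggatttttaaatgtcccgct
Cdkn1a, chr17:29090729-29090978, plus strand: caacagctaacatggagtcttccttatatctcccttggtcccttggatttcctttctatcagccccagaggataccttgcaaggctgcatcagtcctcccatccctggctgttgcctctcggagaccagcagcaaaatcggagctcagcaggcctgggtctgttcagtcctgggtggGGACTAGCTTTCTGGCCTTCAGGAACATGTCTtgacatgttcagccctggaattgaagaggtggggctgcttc
Cdkn2c, chr4:109666757-109667006, minus strand: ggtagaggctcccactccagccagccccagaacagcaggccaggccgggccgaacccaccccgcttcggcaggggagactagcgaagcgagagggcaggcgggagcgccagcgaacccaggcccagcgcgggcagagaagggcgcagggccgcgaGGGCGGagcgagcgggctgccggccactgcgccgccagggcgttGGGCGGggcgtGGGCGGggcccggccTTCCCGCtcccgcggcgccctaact
Cdkn2d, chr9:21291210-21291459, minus strand: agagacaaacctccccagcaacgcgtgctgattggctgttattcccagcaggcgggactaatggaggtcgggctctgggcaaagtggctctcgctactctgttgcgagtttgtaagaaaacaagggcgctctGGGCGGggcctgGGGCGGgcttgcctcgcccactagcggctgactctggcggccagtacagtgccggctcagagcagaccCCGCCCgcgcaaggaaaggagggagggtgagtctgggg

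The Cdk4 window holds 4 E boxes, which start 172, 118, 98 and 11 bases before the start, and 1 GC box on the other strand. An E box occurs in 6.02% of the 32851 promoter windows of this length, and the Cdk6 window holds 1 as well. The Cdkn1a window holds a p53 element 73 bases before the start. It consists of a pair of 10-base boxes and the bases between them, up to 13 being allowed, and 0.0639% of windows have one. The Cdkn2c window holds the E2F spelling TTCCCGC 25 bases before the start and 3 GC boxes. Any of the 4 E2F spellings occurs in 7.89% of windows. Ccne1 has 4 GC boxes and Cdkn2d has 3, and 32.7% of windows hold a GC box. Neither the C/EBP motif TTGCNNAA, present in 9.56% of windows, nor the retinoic acid element of type DR5, a direct repeat present in 0.00913%, was found in the windows of the 8 genes. Both strands were searched, no motif shown overlaps another, and a match is a description of letters. Cdkn1a and Cdkn2c each have a further RefSeq start. The window of that Cdkn1a start holds 2 GC boxes and no p53 element, and that of Cdkn2c holds none of the motifs. 3′ counts do not show which start was used.

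Between the libraries, the D cyclin Ccnd2 fell and the INK4 inhibitor Cdkn2d rose, while the ratios of the other 8 genes were within 2-fold. Ccnd2 stood at 42.1 CPM with vehicle and 4.88 CPM with retinoic acid, which was 8.62-fold lower (log2 ratio -3.11, interval -3.24 to -2.98). Cdkn2d stood at 16.9 and 37.6 CPM, which was 2.22-fold higher (log2 ratio 1.15, interval 1.07 to 1.24). In GENCODE M21 (GRCm38) Ccnd2 lies on the minus strand at chr6:127125162-127152193 and Cdkn2d on the minus strand at chr9:21288410-21291407. A gene was called where the libraries differed by at least 2-fold and either of them reached 20 CPM. Of the 10 genes, 6 reached that level, and 1 was called higher and 1 lower. Over all 5548 genes at that level, 8.07% were called, 3.03% higher and 5.05% lower.

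The other D cyclins did not follow Ccnd2. Ccnd3 had 167 CPM with vehicle and 198 CPM with retinoic acid (log2 ratio 0.25, interval 0.22 to 0.28). Ccnd1 was barely detected, with 51 and 50 counts in all, or 0.515 and 0.454 CPM. Its ratio was not resolved at this depth (log2 ratio -0.18, interval -0.77 to 0.41).

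The kinases had lower values with retinoic acid, both short of the 2-fold rule. Cdk4 had 294 and 207 CPM (log2 ratio -0.50, interval -0.53 to -0.48) and Cdk6 had 499 and 286 CPM (log2 ratio -0.80, interval -0.82 to -0.78). Ccne1 had 10.7 and 18.6 CPM (log2 ratio 0.80, interval 0.69 to 0.91), under the level limit in both libraries. Among the Cip/Kip inhibitors, Cdkn1a had 139 and 120 CPM (log2 ratio -0.21, interval -0.24 to -0.17) and Cdkn1b 16.5 and 19.5 CPM (log2 ratio 0.24, interval 0.15 to 0.33). Cdkn2c had 7.60 and 9.75 CPM (log2 ratio 0.36, interval 0.22 to 0.50). Counts come from the 3′ ends of transcripts and are not scaled to length, so the levels of different genes are not ranked. The strand rule of the counting is not given in the sources used here, and 1771 bases of Ccnd1, 361 of Ccnd3 and 641 of Cdk4 overlap LTO1, Bysl and Tspan31 on the other strand. Tspan31 itself went from 6102 to 2744 counts, against 29128 and 22821 for Cdk4.

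**Figure D1:**
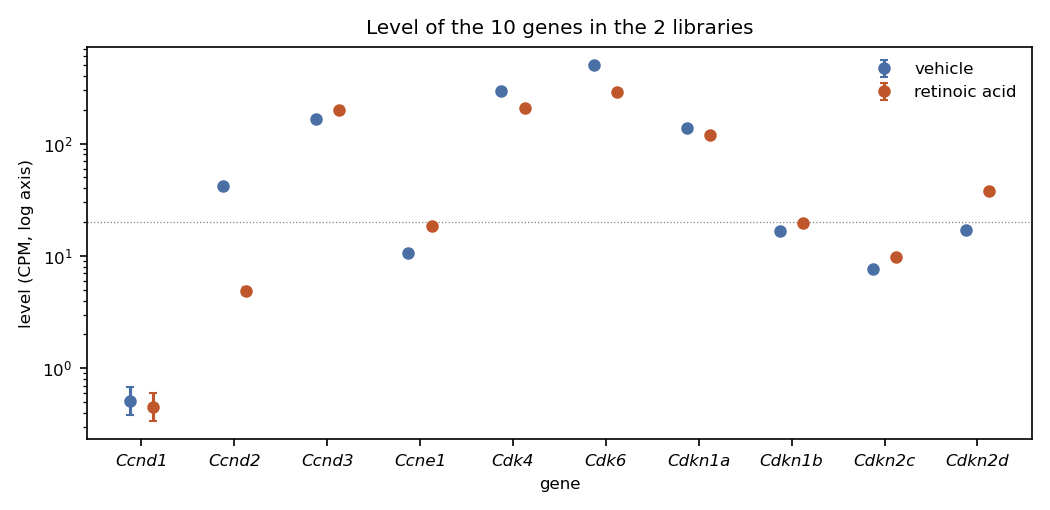
Level of each of the 10 genes in the vehicle and the retinoic acid library, in CPM on a log axis, with 95% Poisson intervals that are mostly narrower than the points. The dotted line marks 20 CPM, and Ccnd2, at 42.1 and 4.88 CPM, and Cdkn2d, at 16.9 and 37.6 CPM, are the genes more than 2-fold apart with a point above it.

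The share of cells that held at least 1 UMI was compared after each cell of at least 5000 UMIs was thinned to 5000, which left 5282 vehicle and 6659 retinoic acid cells. Ccnd2 was detected in 17.2% of vehicle and 1.86% of retinoic acid cells, a difference of -15.4 percentage points (interval -16.5 to -14.3). Cdkn2d was detected in 8.07% and 16.8% (difference 8.74, interval 7.57 to 9.90). Ccnd2 was thus found in fewer cells with retinoic acid, and the most UMIs of Ccnd2 seen in a thinned cell were 5 and 2.

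Cdk6 was detected in 87.3% of vehicle and 67.1% of retinoic acid cells (difference -20.2, interval -21.7 to -18.8). Cdk4 went from 71.3% to 59.1% (difference -12.2, interval -13.9 to -10.5) and Cdkn1a from 42.0% to 35.1% (difference -6.98, interval -8.73 to -5.22). Ccnd3 was found in 55.1% and 59.9% (difference 4.84, interval 3.05 to 6.62), and without thinning in 88.0% and 86.3%, a difference of -1.70 that goes the other way. Ccne1 stood at 4.83% and 8.79%, Cdkn1b at 7.72% and 8.92%, Cdkn2c at 3.05% and 4.66%, and Ccnd1 at 0.265% and 0.315%. The interval of the difference lay above 0 for 5 genes and below 0 for 4. Of the 6 members at 20 CPM or more it lay above 0 for 2 and below 0 for 4, and of all 5548 genes at that level it lay above 0 for 37.3% and below 0 for 38.6%. Without thinning the counts were 2 higher and 5 lower. No cell type that lacks these genes was available in the sort, so shares due to free RNA in the droplets were not separated.

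Among the thinned cells Cdkn1a had the highest ratio of variance to mean of the 10 genes, 2.08 with vehicle and 1.88 with retinoic acid, where Poisson counts would give 1. That of Cdk6 was 1.64 and 1.44. The ratio for Cdkn2d was 1.08 with vehicle and 1.37 with retinoic acid, and that for Ccnd3 was 1.31 and 1.56. Those for Ccnd2 were 1.15 and 1.13, at means of only 0.203 and 0.0201 UMIs per thinned cell. A low mean keeps this ratio near 1, so these values do not show how evenly cells held Ccnd2. The ratio moves with the mean, which for Cdkn2d was 0.0871 with vehicle and 0.216 with retinoic acid.

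Pairs of genes were also followed in the same cells. In the retinoic acid library Cdk6 was detected in 57.6% of the cells with a Cdkn2d UMI (interval 54.7 to 60.6) and in 69.0% of the cells without one (interval 67.8 to 70.2). It was likewise detected in 63.1% of the cells with Ccnd3 and 73.2% of the cells without it. In the vehicle library the same pairs differed by less, with 85.9% and 87.5% for Cdkn2d and 87.0% and 87.7% for Ccnd3. Cdkn1a went with Ccnd3 in both libraries: Ccnd3 was detected in 58.1% of Cdkn1a-positive and 52.9% of Cdkn1a-negative vehicle cells, and in 66.8% and 56.3% of retinoic acid cells. Vehicle cells with Ccnd2 held Ccnd3 at 57.0% (interval 53.7 to 60.3) and those without at 54.7% (interval 53.2 to 56.2). In retinoic acid cells these shares were 48.4% (interval 39.3 to 57.5) and 60.2% (interval 59.0 to 61.4), and these intervals did not overlap. Cdk6 was found in 69.9% of retinoic acid cells with Cdk4 and 63.1% without, and in 87.4% and 87.3% of vehicle cells. Ccnd3 was found in 67.0% of retinoic acid cells with Cdkn2d and 58.5% without, and in 60.8% and 54.6% of vehicle cells. Cdkn2d was found in 14.4% of retinoic acid cells with Ccne1 and 17.0% without, and in 7.45% and 8.10% of vehicle cells. All these shares pool the cells of a library. Among retinoic acid cells the levels of these genes also differed with granule RNA (below), and its part in the pairs was not tested.

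Cycling state was taken from phases called on thinned cells of both libraries together, with S and G2/M gene lists that hold none of the 10 genes. The vehicle library had 52.1% of cells called G1, 11.8% S and 36.1% G2/M, and the retinoic acid library 26.1%, 26.5% and 47.4%. A phase is a range cut from a score: of the retinoic acid G1 cells 22.4% lay within 0.05 of the cut, and of the vehicle S cells 23.1%. Depth moved with phase, with medians of 13752 UMIs in G1 and 23744 in G2/M of the vehicle library and 10874.5 and 18452 with retinoic acid.

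Ccne1, the cyclin of the entry into S phase, rose in S called cells of both libraries. In the vehicle library it had 5.54 CPM in G1, 41.7 in S and 7.35 in G2/M, and S was 7.52-fold above G1 (log2 ratio 2.91, interval 2.68 to 3.15). In the retinoic acid library it had 8.73, 46.4 and 9.54 CPM, with S 5.31-fold above G1 (log2 ratio 2.41, interval 2.18 to 2.65). By the 2-fold rule 1 of the 6 members at the level limit differed between S and G1 in the vehicle library, against 7.78% of all genes tested. In the retinoic acid library 2 of 7 did, against 6.2%. The other was Cdkn2d, which had 39.7 CPM in G1, 14.9 in S and 46.0 in G2/M of retinoic acid cells and was 2.66-fold lower in S than in G1. Its vehicle values had the same order at 15.6, 8.89 and 19.8 CPM, below the level limit. These calls depend on how phases are defined: with cells ranked by the summed S and G2/M lists and the highest of 4 groups set against the lowest, the log2 ratio of Cdkn2d in retinoic acid cells was -0.24, and Ccne1, at 1.51 and 1.94 in the libraries, was under the level limit.

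Cdkn2c had its higher values in S and G2/M, though at levels below the limit for a call. It had 1.52 CPM in G1, 12.0 in S and 11.7 in G2/M of the vehicle library and 1.25, 11.6 and 11.7 CPM with retinoic acid. The interval of the ratio between libraries included 0 in each phase. Cdk4 was highest in S in both libraries, at 216, 392 and 336 CPM in G1, S and G2/M of vehicle cells and 144, 264 and 205 CPM of retinoic acid cells. Ccnd3 ran the other way, at 208, 165 and 132 CPM with vehicle and 293, 221 and 155 CPM with retinoic acid. None of these differences of Cdk4 and Ccnd3 between called phases reached 2-fold, while between the groups ranked by the summed lists Cdk4 was called higher (1.10) and Ccnd3 lower (-1.31 on the log2 scale) in retinoic acid cells.

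Cdkn1a, the p53 target among the inhibitors, was highest in G1 in the vehicle cells, while its levels in G1 and S of the retinoic acid cells were alike. It had 196 CPM in G1, 113 in S and 96.0 in G2/M of the vehicle library, where G2/M was 2.04-fold below G1 (log2 ratio -1.03, interval -1.08 to -0.97). In the retinoic acid library it had 135, 136 and 108 CPM. Cdkn1a was the 1 member of 5 tested that passed the rule between G2/M and G1 in the vehicle library, where 7.76% of genes did. None of 6 passed it with retinoic acid, where 6.89% of genes did. The difference between the libraries in this ratio has no test. Cdkn1b did not reach 2-fold between phases, at 17.8, 11.7 and 16.3 CPM in the vehicle and 20.02, 17.06 and 19.87 CPM with retinoic acid. Cdk6 had 559, 434 and 460 CPM against 251, 268 and 304 CPM.

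**Figure D2:**
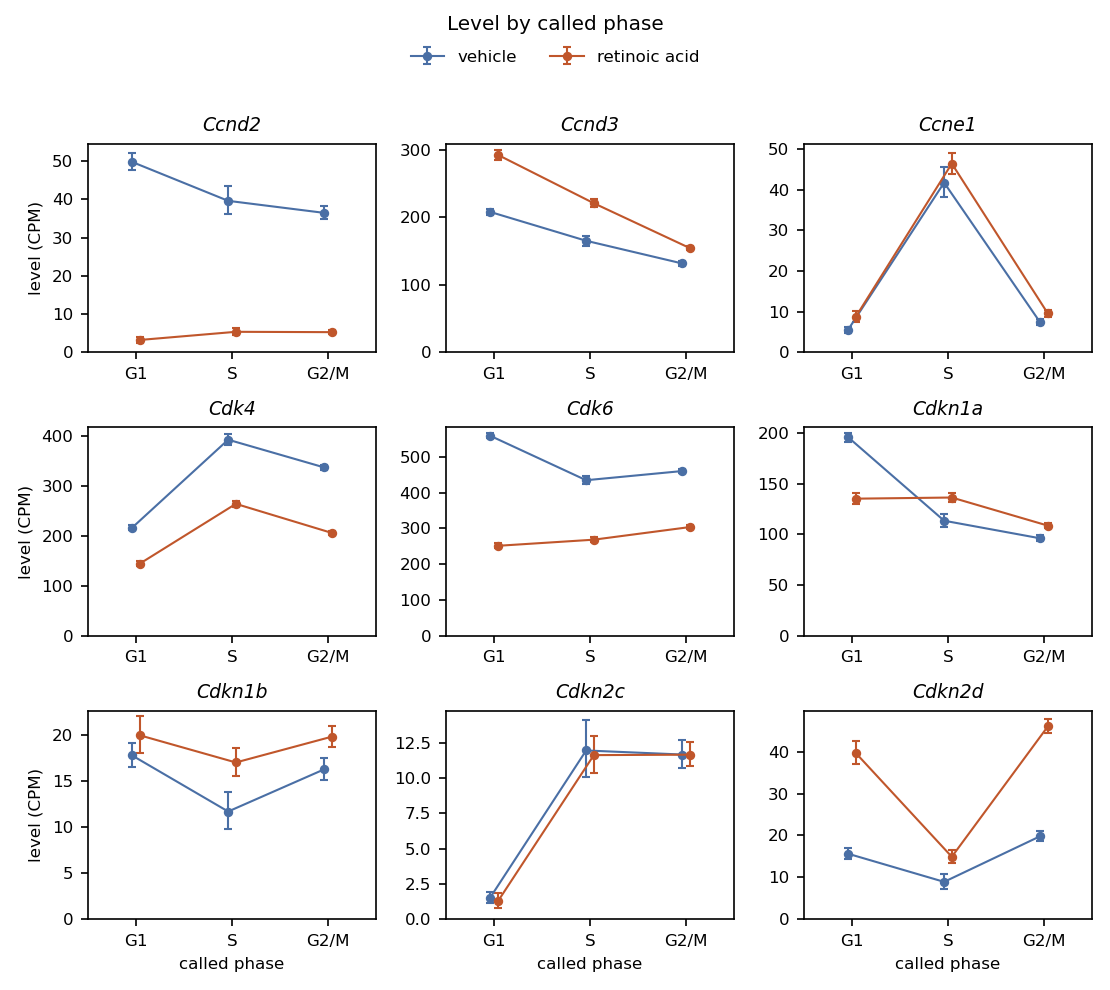
Level of 9 genes (Ccnd1 is left out for its few counts) in cells called G1, S or G2/M, in CPM with 95% Poisson intervals, for the vehicle and the retinoic acid library, with an axis of its own for each gene. Ccne1 peaks in S in both libraries at 41.7 and 46.4 CPM, while Ccnd2 lies between 36.4 and 49.8 CPM in vehicle cells and between 3.21 and 5.34 CPM in retinoic acid cells.

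Compared phase by phase, Ccnd2 was lower with retinoic acid in each of the 3. The values were 49.8 and 3.21 CPM in G1, 39.6 and 5.34 in S, and 36.4 and 5.25 in G2/M, which are falls of 15.4-fold, 7.39-fold and 6.93-fold. Cdkn2d passed the rule in G1, at 15.6 and 39.7 CPM, and in G2/M, at 19.8 and 46.0 CPM. It did not in S, where it had 8.89 and 14.9 CPM. Cdk6 passed it in G1 alone, at 559 and 251 CPM (log2 ratio -1.15, interval -1.20 to -1.11). In G1 these made 3 of 7 members tested, against 11.6% of all genes. In S 1 of 6 passed, against 6.97%, and in G2/M 2 of 6, against 6.53%.

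Among the cells deep enough to be given a phase, when the levels of each phase were weighted by the phase shares of the vehicle library, the ratios of 2 low-level genes moved towards 0. That of Ccne1 went from 0.80 to 0.36 and that of Cdkn2c from 0.35 to -0.04. Those of the genes that had been called moved slightly away from 0, Ccnd2 from -3.10 to -3.38 and Cdkn2d from 1.14 to 1.26. Cdk6 went from -0.80 to -0.90, Cdk4 from -0.50 to -0.64 and Ccnd3 from 0.24 to 0.42. Cdkn1a went from -0.20 to -0.26, and Cdkn1b stayed near 0.24. Some of these moves depend on the weights. With the phase shares of the retinoic acid library, Ccnd2 was at -3.10, Cdk6 at -0.77 and Cdkn1a at -0.045. Cdk4 at -0.64, Ccnd3 at 0.37 and Cdkn2d at 1.19 still lay further from 0 than unweighted. Phase by phase, Cdkn1a was lower with retinoic acid in G1 (log2 ratio -0.53) and higher in S (0.26) and G2/M (0.18).

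The granule share, the percent of thinned UMIs in Camp, Ngp, Ltf and Lcn2, had a median of 0.02% in vehicle and 1.8% in retinoic acid cells. The retinoic acid cells were ranked by it and cut at 0.6%, 1.8% and 6.08% into 4 granule groups of 1664 or 1665 cells, group 1 being the lowest, with median granule shares of 0.3%, 1.06%, 3.34% and 11.64%. From group 1 to group 4 Ccnd3, Ccne1, Cdkn1a and Cdkn2d rose and Cdk4 and Cdk6 fell. These were 6 of the 7 members tested, against 12.5% of the 5504 genes tested, 4.11% higher and 8.36% lower. Depth and phase moved with the groups: the median depth went from 17991 to 10757 UMIs, and the share called G1 was 19.8%, 20.7%, 19.6% and 44.4%.

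Cdkn2d, the INK4 inhibitor called between libraries, had 15.4, 22.6, 40.5 and 89.4 CPM in the 4 groups, a 5.80-fold rise (log2 ratio 2.53, interval 2.39 to 2.68). It was detected in 7.03% of the cells of group 1 and 33.0% of group 4 at equal depth. When the same cells were cut into 10 groups its level went from 13.8 to 114 CPM, and each group was above the one before. Ccnd3 had 115, 156, 205 and 378 CPM, a 3.28-fold rise (log2 ratio 1.71, interval 1.65 to 1.77), and was detected in 44.9% and 80.9% of cells of groups 1 and 4. Its level also went up at each of the 10 groups, from 105 to 492 CPM. A D cyclin and an inhibitor of its kinases were thus highest in the same group.

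The kinases ran the opposite way. Cdk4 had 262, 228, 191 and 118 CPM, a 2.22-fold fall (log2 ratio -1.15, interval -1.22 to -1.09), and Cdk6 had 354, 324, 265 and 144 CPM, a 2.46-fold fall (log2 ratio -1.30, interval -1.36 to -1.24). Cdk6 was detected in 79.4% of the cells of group 1 and 46.1% of group 4. Ccnd2, already low, had 9.95, 4.53, 2.40 and 0.822 CPM, and only 0.421% of the cells of group 4 held a UMI.

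Cdkn1a had 80.8, 102, 142 and 181 CPM (log2 ratio 1.16, interval 1.09 to 1.24), and Ccne1 had 13.1, 16.0, 18.6 and 31.6 CPM (log2 ratio 1.27, interval 1.09 to 1.46). Over the 10 groups Cdkn1a peaked in the last but one at 205 CPM and had 158 CPM in the last. Ccne1 was likewise highest in the last but one, at 35.5 CPM. Cdkn1b had 16.9, 16.1, 19.5 and 27.1 CPM and did not reach 2-fold. Cdkn2c had 5.28, 6.86, 11.2 and 19.4 CPM (log2 ratio 1.87, interval 1.61 to 2.15), just below the level limit. All 4 inhibitors thus had their highest value of the 4 groups in the cells richest in granule RNA, as did Ccnd3 and Ccne1. The share of all genes that were highest in that group was not counted, so this is not read as a trait of inhibitors.

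**Figure D3:**
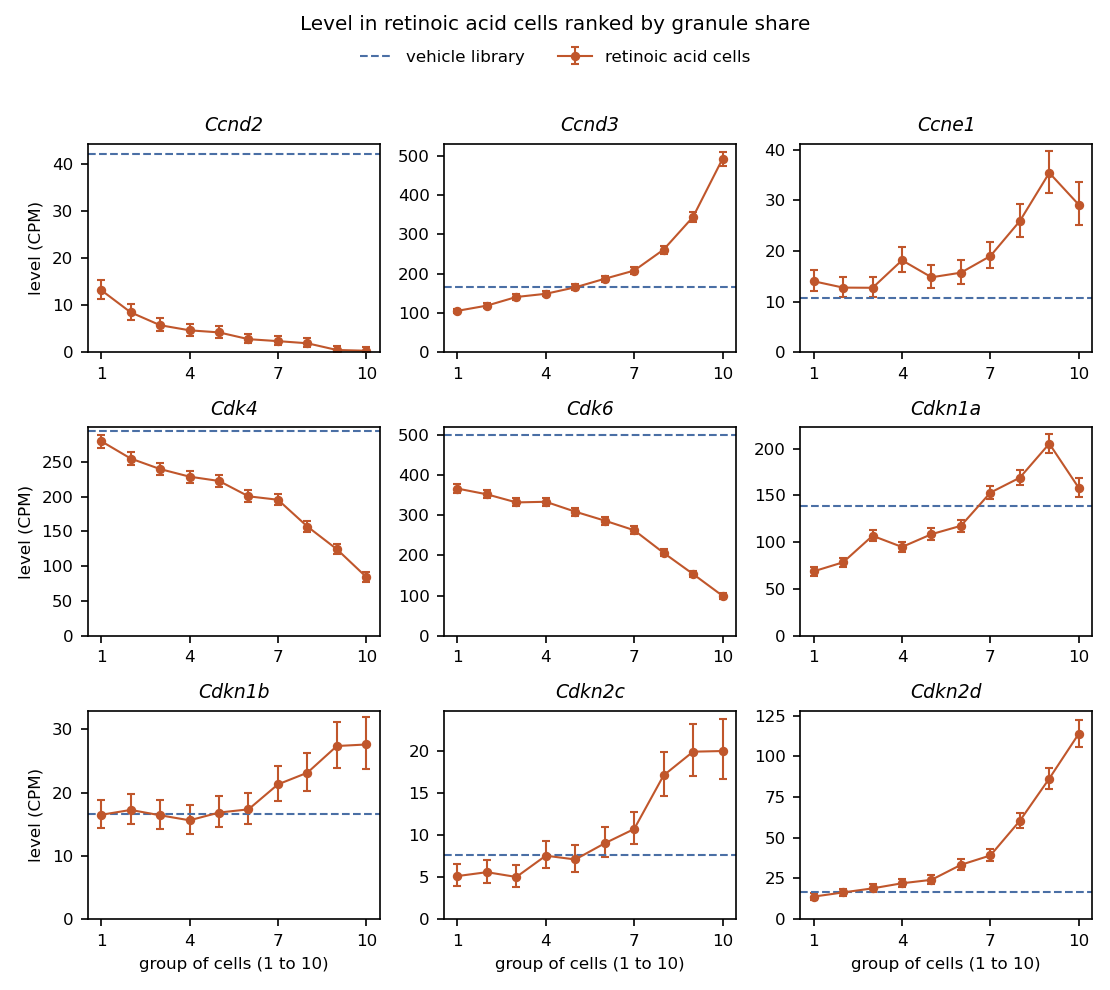
Level of 9 genes in the retinoic acid cells cut into 10 groups of like size by granule share (1 lowest, 10 highest), in CPM with 95% Poisson intervals. The dashed line is the level of the whole vehicle library. Cdkn2d climbs from 13.8 to 114 CPM and Ccnd3 from 105 to 492 CPM, while Cdk6 goes from 366 to 99.3 CPM.

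Granule and other maturation genes take up part of the total in group 4, which lowers the CPM of all other genes there. When the 22 genes of the maturation list were taken out of the totals, 6 of 8 members tested were called, against 9.29% of all genes (6.71% higher and 2.58% lower), and all 6 were higher: Ccnd3 (2.04), Ccne1 (1.60), Cdkn1a (1.49), Cdkn1b (1.00), Cdkn2c (2.20) and Cdkn2d (2.86 on the log2 scale). Cdk4 at -0.83 and Cdk6 at -0.98 then missed the 2-fold rule. Whether the kinases pass the rule thus depends on the RNA of the maturation list being in the total, while the sign of their ratios was the same either way.

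Within called G1 cells, 4 of 6 members passed the rule between granule groups 4 and 1, where 27.5% of all genes did. Ccnd3 went from 136 to 493 CPM and Cdkn2d from 12.5 to 83.8 CPM. Cdk4 went from 218 to 66.0 CPM and Cdk6 from 357 to 132 CPM. Ccne1 did not take part, at 8.18 and 7.54 CPM (log2 ratio -0.12, interval -0.75 to 0.53).

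Within S called cells 5 of 7 passed, against 7.99%: Ccnd3 (139 to 373 CPM), Ccne1 (33.1 to 77.3), Cdkn1a (84.5 to 241) and Cdkn2d (7.93 to 29.5) rose, and Cdk6 (335 to 134) fell. Within G2/M 7 of 8 passed, against 7.8%, with the same 5 genes, Cdk4 (255 to 121 CPM) and Cdkn2c. Cdkn2c had 5.28 CPM in group 1 and 36.0 CPM in group 4 of G2/M cells, a 6.80-fold rise. Cdkn2d had 19.1 and 136 CPM there, its highest level of the 12 sets of cells by phase and granule group. All 4 inhibitors had their highest value in granule group 4 also among the cells called G2/M, where the share of all genes that did so was not counted either. Among those called G1, Cdkn1a was highest in group 3, at 96.8, 129, 172 and 143 CPM in groups 1 to 4.

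**Figure D4:**
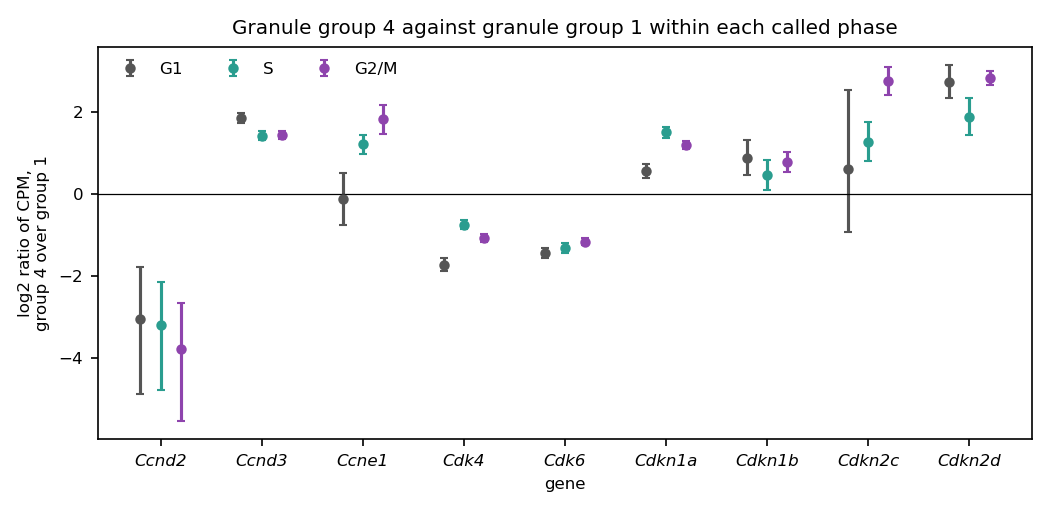
Log2 ratio of the level in granule group 4 over granule group 1 of the retinoic acid cells for 9 genes, within cells called G1, S or G2/M, with exact 95% counting intervals. Ccnd3 lies between 1.42 and 1.86 and Cdk6 between -1.43 and -1.16 in all 3 phases, while Ccne1 is at -0.12 in G1 and at 1.22 and 1.83 in S and G2/M.

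The limits of the granule groups were then applied to both libraries. Granule share is not matched inside the lowest band. Over all thinned vehicle cells the median share was 0.02% and the upper quartile 0.06%. In granule group 1 of the retinoic acid cells the median was 0.3%. In the lowest band, up to 0.6%, lay 5139 vehicle and 1689 retinoic acid cells. Cdkn2d had 16.0 CPM in these vehicle cells and 15.5 CPM in these retinoic acid cells (log2 ratio -0.05, interval -0.20 to 0.10), so that its difference between whole libraries was not seen here. Ccnd2 had 42.6 and 9.83 CPM, a 4.32-fold fall (log2 ratio -2.11, interval -2.28 to -1.95). It was the 1 member called of 5 tested, against 5.77% of all genes.

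In the same band Ccnd3 had 162 CPM in vehicle and 116 CPM in retinoic acid cells (log2 ratio -0.48, interval -0.54 to -0.43). Cdkn1a had 137 and 80.9 CPM (log2 ratio -0.76, interval -0.82 to -0.70). Cdk6 had 498 and 354 CPM and Cdk4 297 and 262 CPM. Cdkn2c had 7.56 and 5.31 CPM (log2 ratio -0.51, interval -0.76 to -0.27), Cdkn1b 16.3 and 16.8 CPM, and Ccne1 10.6 and 13.1 CPM. Against the whole libraries, Ccnd3 and Cdkn2c thus had ratios of the opposite sign with intervals that did not include 0.

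The vehicle library had few cells with granule RNA, 66, 49 and 28 in bands 2, 3 and 4. The values of Cdkn2d, Ccnd3, Cdk4, Cdk6 and Ccnd2 ran along them in the same direction as in the retinoic acid library. Cdkn2d had 29.7, 72.4 and 104 CPM and Ccnd3 330, 353 and 707 CPM, and all 28 cells of band 4 held a Ccnd3 UMI. Cdk4 had 224, 172 and 66.7 CPM and Cdk6 532, 424 and 193 CPM. Ccnd2 had 24.9, 22.8 and 14.8 CPM, above the 4.57, 2.45 and 0.772 CPM of retinoic acid cells in these bands. Cdkn1a had 197, 208 and 193 CPM. In band 2, with 66 vehicle cells, Ccnd2 and Ccnd3 were called lower with retinoic acid, which made 2 of 7 members against 9.06% of all genes.

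**Figure D5:**
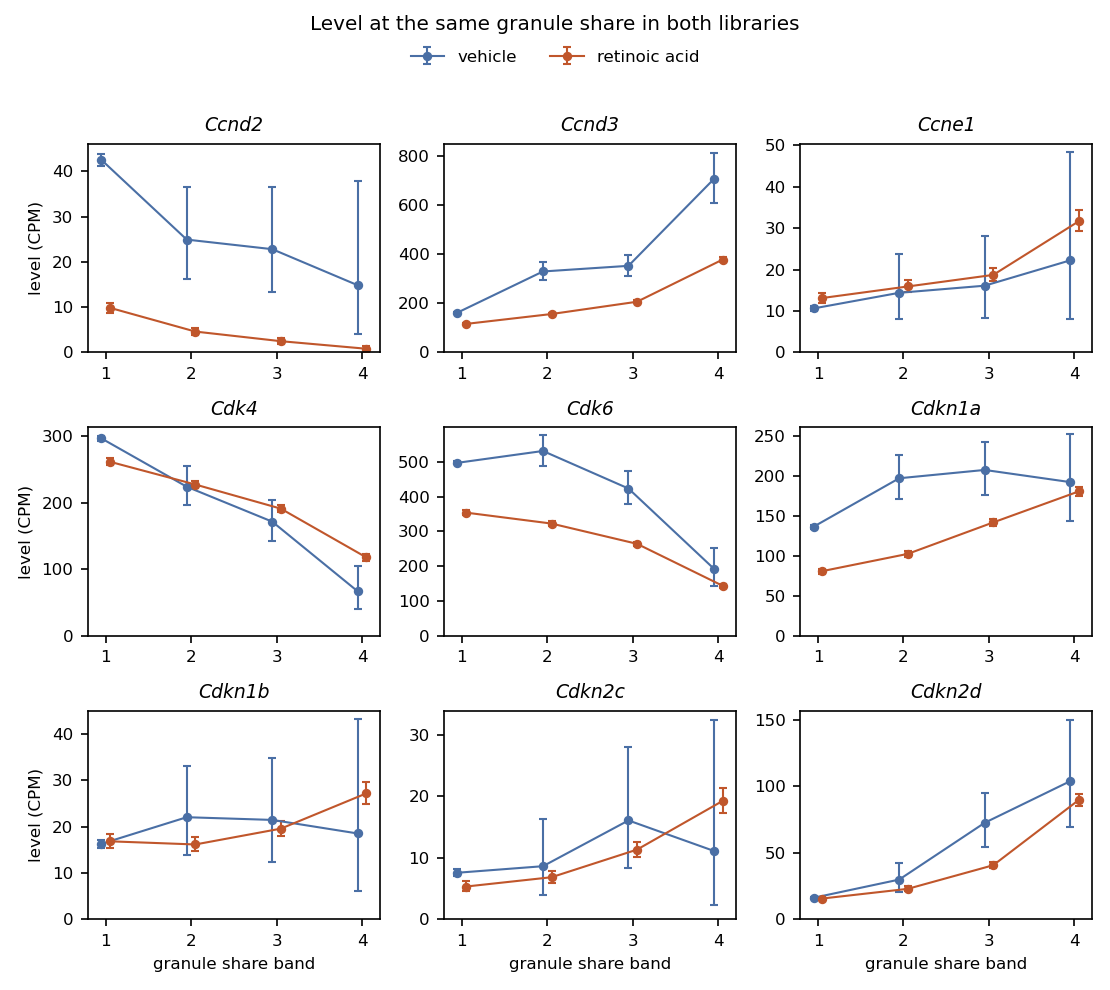
Level of 9 genes in vehicle and retinoic acid cells within 4 bands of granule share (limits 0.6%, 1.8% and 6.08%), in CPM with 95% Poisson intervals, which are wide for the 66, 49 and 28 vehicle cells of bands 2 to 4. Cdkn2d starts at 16.0 and 15.5 CPM in band 1 and is higher in each later band of both libraries, while Ccnd2 stays lower in retinoic acid cells in every band.

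Vehicle cells were further split by Cpa3, a mast cell and basophil protease, and Mpo, the primary granule peroxidase, as the Cpa3 level differed so widely between libraries. At the thinned depth 2573 cells held Cpa3 only, 623 Mpo only, 518 both and 1568 neither. Ccnd2 was alike in these 4 classes, at 45.1, 41.5, 41.3 and 38.2 CPM, all far above the 4.88 CPM of the retinoic acid library. Cdkn1a differed more, at 168 CPM with Cpa3 only and 90.1 with Mpo only, and had 130 with both and 116 with neither. Cdkn2d ran from 11.9 to 19.1 CPM and Cdk6 from 480 to 512 CPM.

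For each of the 6 members at 20 CPM or more, the 3 genes with the most similar level were sought over 15 groups of cells, the 3 vehicle phases and the 12 sets by phase and granule group of the retinoic acid library. The Pearson correlations of log2(CPM + 1) are descriptions, since the groups share 2 libraries. Of 5452 candidates, Ccnd2 was most like Fut8 (r = 0.99), Oaf (0.99) and Tmem156 (0.98). All were lower with retinoic acid, such as Oaf at 98.1 and 8.70 CPM. Picking genes by correlation over groups of both libraries favours such partners for Ccnd2, so their fall is no separate result. Cdk4 was most like Apex1 (1.00), Exosc7 (0.99) and Srm (0.98), and Cdk6 most like Eef2k, Ddb1 and Eif4b (each 0.99). Apex1 encodes a DNA repair endonuclease and Srm spermidine synthase. Ccnd3 was most like Tinagl1, Lilrb4a (each 0.98) and Alox5 (0.97), the leukotriene-forming lipoxygenase of myeloid cells. Cdkn1a (Timp2 0.90, Pycard 0.87) and Cdkn2d (Ehd1 0.93, Rmnd5b 0.93, Phf20l1 0.91) had less close partners.

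Other genes of the pathway were read from lists. Of 31 Rb and E2F pathway genes in the matrices, 20 reached 20 CPM in either library, and 2 of them were called higher and 1 lower, beside 3.03% and 5.05% of all genes. The median log2 ratio was 0.20, beside -0.08 over all 14561 genes with at least 10 counts. Over the 5548 genes at 20 CPM or more the median was 0.006, with quartiles of -0.25 and 0.24, so 0.20 lies between these quartiles. The E cyclin Ccne2 had 9.12 and 23.4 CPM and the phosphatase Cdc25a, which activates Cdk2, 17.0 and 46.5 CPM. Cdc25a had 10.2, 34.1 and 18.3 CPM in G1, S and G2/M called vehicle cells and 34.1, 67.5 and 41.2 CPM in retinoic acid cells. The most abundant other gene of the list, Cdc37, a chaperone for kinases, had 207 and 202 CPM.

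The gene that was lower was Cdkn2a, the INK4 locus that encodes p16 and, from another reading frame, Arf. It had 148 CPM with vehicle and 13.8 CPM with retinoic acid (log2 ratio -3.43). Both transcripts share their 3′ end and cannot be told apart. In the vehicle library Cdkn2a had 255 CPM in G1, 63.5 in S and 73.9 in G2/M, and in retinoic acid cells 11.1, 12.3 and 14.7 CPM. Its neighbour Cdkn2b had 7.90 and 0.263 CPM, under the level limit. Within the INK4 family, Cdkn2a and Cdkn2d were thus called in opposite directions between the libraries.

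Of 20 genes of the p53 list, which includes regulators of Cdkn1a, 11 reached the limit and 1 was called, beside 8.07% of all genes. It was Fas, a death receptor, which rose from 6.65 to 22.0 CPM (log2 ratio 1.73). Zmat3, under the limit, had 7.36 and 0.781 CPM (log2 ratio -3.23, interval -3.57 to -2.91). The list's median ratio was -0.03. Its most abundant genes were Bax, which promotes apoptosis, at 253 and 297 CPM, Trp53 itself at 124 and 132 CPM, and Ccng1 at 76.3 and 73.2 CPM. Of 16 regulators of D cyclins and Cip/Kip inhibitors, 9 reached the limit and none was called, with a median of -0.18. The granulocyte factor Cebpe had 401 and 359 CPM, Myc 119 and 116 CPM, Akt1 82.8 and 102 CPM, and Gsk3b 63.6 and 64.6 CPM.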

How the data were processed

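Droplet single-cell RNA-seq of 2 libraries, 1 per treatment, was analysed. The deposited values are raw counts (UMIs per gene and cell), and per the file headers they come from Cell Ranger 4.0.0; the builds mm10 and GRCm38.p4 are named in the submitters' processing notes, and no normalisation had been applied to these counts. The 10 genes, the gene lists and the rules were chosen with earlier results of these data known. Of 32285 gene identifiers, 32235 matched GENCODE M21 (GRCm38).

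Cells were kept with no fewer than 1000 UMIs and 500 genes and with a mitochondrial share up to 10%, which removed 310 of 5786 vehicle and 276 of 7416 retinoic acid barcodes. Scrublet called 1 and 7 doublets (0.0183% and 0.0980%), so few that the caller was taken not to have worked, and no doublets were removed. CPM are 10000 times the percent of the summed counts, with exact Poisson intervals; a sum of 0 would allow 3 counts, or 0.0303 and 0.0273 CPM. Log2 ratios add 0.5 counts and carry an exact binomial interval conditional on the sum of both counts. Shares carry Clopper-Pearson and their differences Newcombe intervals, all at 95%. A call needs a ratio of at least 2 and 20 CPM in either group, over all genes. For measures per cell, cells were thinned to 5000 UMIs, which left out 194 vehicle and 481 retinoic acid cells. Phases came from scanpy 1.11.5 with 43 S and 54 G2/M genes, on both libraries together. The ratio and its interval were tried on simulated Poisson counts with known folds, the counting model that the interval assumes. This does not test them against spread between cells or mice.

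Named are the 10 genes; of each pathway list, the genes called and, where these were fewer than 4, the most abundant others up to 4; and, for each member at 20 CPM or more, the 3 most similar genes, of which 1 for Cdkn1a is not reported here. Cdkn2b and Zmat3 fall outside that rule and were chosen after their values were seen. Alternatives covered cell filters, depth, scaling (edgeR 4.0.16 for TMM), level limits and phase calls. Other analyses used Python 3.11.15, numpy 2.4.6 and scipy 1.17.1.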

Additional observations from a re-analysis of the deposited data

How the results depend on the processing

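No paired analysis was possible because there was a single library per treatment. The counts of 1 gene called higher and 1 called lower between libraries were the same under each alternative run: all barcodes, 5% mitochondrial UMIs, removal of the highest doublet scores, of cells of very low mitochondrial share, of cells with markers of other lineages and of shared barcodes, TMM and median ratio scaling (which shift all log2 ratios by 0.08 and 0.11), totals without maturation and mitochondrial genes, equal weight for every cell, a limit of 5 CPM and no limit. Leaving out cells with other-lineage markers as planned kept 396 vehicle and 2979 retinoic acid cells, since most cells held Nkg7, Mcpt8 or Itga2b; without counting these 3 genes, an alternative chosen after seeing the data, it kept 5094 and 6631. Without thinning, 2 genes in place of 5 had a higher share of positive cells and the Ccnd3 difference was -1.70 percentage points. Between granule groups 4 and 1 the Ccne1 ratio was -0.12 within G1 cells. With a limit of 5 CPM, 2 genes in place of 1 differed between S and G1 in the vehicle library. With all cells ranked by the summed phase lists and cut into 4 groups, and the last group set against the first in place of S against G1, also chosen after seeing the data, the ratios of Cdkn1b (0.040) and Cdkn2d (0.59) in the vehicle and Cdkn1b (0.014) in the retinoic acid library changed sign. This setting also changed which genes were called: Cdkn1a (-1.23) in place of Ccne1 (1.51, under the level limit) in the vehicle library, and Ccnd3 (-1.31) and Cdk4 (1.10) in place of Ccne1 (1.94, under the limit) and Cdkn2d (-0.24) with retinoic acid. The median of the D cyclin regulator list was -0.10 under TMM and -0.18 otherwise. The causes were not tested. Of 270 alternative values for single genes, 165 lay within the counting interval and 97 outside it with the same sign. In all 12 changed sign, these 5 and 7 whose interval already included 0. Some of the 7 are also among the 165 within the interval. Depth limits Ccnd1, with 51 and 50 counts.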
